A study of Mus musculus with 6 samples.

Results

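Inflammasome genes were examined in a mouse leukaemia line, URE, on 6 expression arrays, of which 3 came from cells with a hairpin against luciferase (shControl) and 3 from cells with a hairpin against Hlx (labelled shHLX). Values are log2 signals of probe sets, so a difference of 1 is a doubling. The 9 genes were chosen by name: the sensors Aim2, Nlrp3 and Nlrc4, the adaptor Pycard, the caspases Casp1 and Casp4, the cytokines Il1b and Il18, and the pore former Gsdmd. Each had 1 probe set annotated to it alone, so all 9 were found among the 19938 genes tested. The set was drawn up with the shHLX to shControl differences already known, Aim2 being among the genes that were higher by most, so the values of these 9 genes are given as a description, with no p-value. All cells in both groups were of the same line, carried a lentiviral pSIH1-H1-copGFP vector and were sorted for green fluorescence. As background, since the labels give only its name, the line is called after an upstream regulatory element of the gene for PU.1 that was deleted in the mice it came from, so both groups share that lesion. The cells grew in medium with WEHI and BHK cell supernatants. The study set out to learn what Hlx, a homeobox transcription factor, does in blood cell differentiation and tumour growth.

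An inflammasome is a protein complex that myeloid cells assemble in the cytosol when they meet microbial or damage signals. A sensor recruits the adaptor ASC, encoded by Pycard, which gathers procaspase-1 so that it activates itself. Active caspase-1 cuts the precursors of the cytokines interleukin-1 beta and interleukin-18, and it cuts gasdermin D, whose freed end forms pores in the membrane. Macrophages raise the mRNA of Nlrp3 and Il1b when Toll-like receptors are engaged, a step called priming. Protein assembly and cleavage were not measured here, only mRNA.

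The stretch upstream of the start site is printed for Aim2 and Nlrp3, the members that differed most, and for Casp4, whose signal differed by less than 0.1 on the log2 scale. Each run holds the 250 bases before an annotated start, read 5′ to 3′ on the gene's strand from RefSeq with build GRCm38.p6. Capitals mark matches to 8 motifs searched on both strands. Aim2 lies at chr1:173420354-173420603 on the plus strand, Nlrp3 at chr11:59541319-59541568 on the plus strand (the more upstream of 2 annotated starts), and Casp4 at chr9:5308599-5308848 on the plus strand (also the more upstream of 2).
Aim2: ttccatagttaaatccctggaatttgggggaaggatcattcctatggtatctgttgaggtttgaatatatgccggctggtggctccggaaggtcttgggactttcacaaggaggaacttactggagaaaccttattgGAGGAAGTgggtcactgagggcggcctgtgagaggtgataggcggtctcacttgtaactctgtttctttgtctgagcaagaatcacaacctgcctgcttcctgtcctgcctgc
Nlrp3: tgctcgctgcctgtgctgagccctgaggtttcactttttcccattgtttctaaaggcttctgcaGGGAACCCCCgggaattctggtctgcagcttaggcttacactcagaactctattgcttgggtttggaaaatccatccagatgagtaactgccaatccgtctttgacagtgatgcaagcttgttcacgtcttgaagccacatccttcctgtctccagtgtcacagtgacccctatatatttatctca
Casp4: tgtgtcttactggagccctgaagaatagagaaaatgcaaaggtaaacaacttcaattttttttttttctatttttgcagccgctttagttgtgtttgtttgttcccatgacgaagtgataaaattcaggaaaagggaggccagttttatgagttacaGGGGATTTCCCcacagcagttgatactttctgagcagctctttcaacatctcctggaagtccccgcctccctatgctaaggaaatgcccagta

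The Aim2 window held 1 match, GAGGAAGT, at 113 to 106 bases before the start. This is the form of ETS site that PU.1 binds, and 2.44% of all 32851 windows of this length held it on either strand. Pycard also had 1 such match, on the opposite strand at 44 to 37 bases before its start. The Nlrp3 window held 1 match to the NF-kB site, on the opposite strand at 186 to 177 bases before the start, printed as GGGAACCCCC. Its other window held no match to any of the 8 motifs. Casp4 carried 2 overlapping NF-kB matches, GGGGATTTCC and GGGATTTCCC, between 93 and 83 bases before the start. The NF-kB site was searched as GGGRNWYYCC, where R is A or G, N any base, W A or T, and Y C or T. Matches to it were found in 3.9% of all windows. The interferon-stimulated response element (GAAA, any 2 bases, then GAAA, in 2.98% of windows), the GAS element (TTCNNNGAA, in 7.02%) and the AP-1 site (TGANTCA, in 6.75%) were found in none of the 10 windows of the 8 members that had one. The homeobox pair TAATTA, in 4.84% of windows, occurred once before Nlrc4 and at 2 places before Il18. The TATA box (TATAAA, in 12.4%) matched before Il1b, at 31 to 26 bases from the start. Before Il18 its letters matched on the opposite strand, at 175 to 170 bases from the start, where they overlapped a TAATTA match. The C/EBP site (TTGCNNAA, in 9.56%) matched on the opposite strand before Nlrc4 and Pycard. A match describes these letters and says nothing of binding.

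The target of the hairpin was checked first. Hlx gave 10.21, 10.12 and 10.20 with shControl and 10.08, 10.06 and 10.17 on the arrays labelled shHLX, with 1 control value inside the shHLX range. For the difference of -0.07, permuting the 6 arrays exactly (two-sided) gave p = 0.2, and 3 against 3 can give no less than 0.1. Limma, a linear model fitted to all 19938 genes, gave an adjusted p of 0.479. The direction of each comparison therefore rests on the labels. The arrays had medians of 7.02 to 7.10 on the log2 scale, and correlations over the genes tested of 0.9978 to 0.9987 within groups and 0.9942 to 0.9959 between them. Of 14 myeloid markers, 12 had a mean over the 6 arrays above the level that 95% of 1027 olfactory receptor genes stayed under (6.66). Ptprc and Cd34 did not. Ms4a3 did so only through its shControl arrays, at 9.50 to 9.62 against 6.06 to 6.22 on the arrays labelled shHLX. Olfactory receptors are silent in most tissues, so that level served as a rough mark of background. Of 15 macrophage and dendritic cell markers 12 lay under it, among them Adgre1, a classic gene of macrophages, at 5.19 to 5.38 on the 6 arrays. Cd68, another macrophage gene, lay well above that level at 9.10 to 9.21, and Zbtb46 and Marco had means above it (7.16 and 6.85).

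Aim2, whose protein binds double-stranded DNA in the cytosol, differed most. Its signal was 6.07, 6.11 and 6.13 with shControl, and 8.66, 8.47 and 8.64 on the arrays labelled shHLX. The groups did not overlap, and the nearest arrays were 2.34 apart. The means were 6.103 ± 0.030 and 8.59 ± 0.10 (SD, n = 3 each), a difference of 2.49 on the log2 scale (SE 0.059), or 5.60-fold (95% confidence interval 5.09 to 6.17, from limma as for every interval given). It ranked 9 among the genes higher with shHLX, of 19938 in all. The control values lay under the olfactory receptor level and the shHLX values above it.

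Nlrp3 encodes the sensor that responds to potassium loss, crystals and many other disturbances. Its signal was 6.57, 6.64 and 6.47 with shControl, and 7.73, 7.87 and 7.87 on the arrays labelled shHLX. The groups did not overlap, and the nearest arrays were 1.09 apart. The means of 6.56 ± 0.087 and 7.82 ± 0.077 (SD, n = 3 each) differed by 1.26 on the log2 scale (SE 0.062), or 2.40-fold (95% confidence interval 2.17 to 2.65), which ranked 38 among the genes higher with shHLX. Its control values too lay under the olfactory receptor level.

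Nlrc4, which works with NAIP proteins that bind bacterial flagellin and secretion system parts, was dim and varied most between replicates. It gave 5.70, 5.82 and 6.07 with shControl and 5.89, 6.18 and 6.36 on the arrays labelled shHLX. The groups overlapped, with the lowest shHLX array below 1 of the control arrays. The difference was 0.28 (SE 0.13, 95% confidence interval -0.03 to 0.59). The control means of all 3 sensors lay under the olfactory receptor level, where part of a signal may be background, so the folds and ranks given are of signal and need not equal those of RNA.

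**Figure D1:**
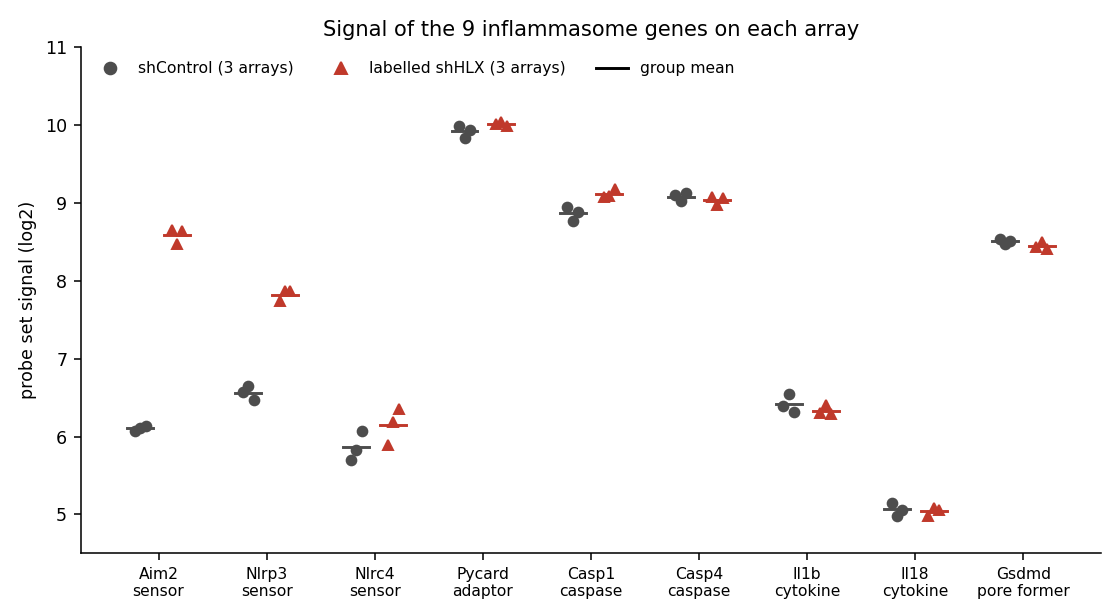
Log2 signal of the probe set of each of the 9 genes on each array, with 3 shControl arrays as grey circles, 3 arrays labelled shHLX as red triangles and horizontal lines for group means. The groups stand 2.34 apart for Aim2 and 1.09 apart for Nlrp3, stand 0.13 apart for Casp1 and overlap for the other 6 genes. Signals of different genes come from different probes and are not on a common scale.

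The adaptor gene Pycard gave 9.99, 9.84 and 9.94 with shControl and 10.02, 10.04 and 9.99 on the arrays labelled shHLX. The highest control array and the lowest shHLX array met, so the groups overlapped, though barely. The difference was 0.09 (SE 0.052, 95% confidence interval -0.03 to 0.21).

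Casp1, the protease that the canonical inflammasomes activate, gave 8.95, 8.77 and 8.89 with shControl and 9.08, 9.08 and 9.17 on the arrays labelled shHLX. The groups did not overlap, though the nearest arrays were only 0.13 apart. The means of 8.87 ± 0.094 and 9.11 ± 0.052 (SD, n = 3 each) differed by 0.25 (SE 0.059), or 1.19-fold (95% confidence interval 1.08 to 1.30). Casp4, which encodes the mouse caspase-11 that binds bacterial lipopolysaccharide, lies next to Casp1 on the chromosome. It gave 9.10, 9.02 and 9.13 with shControl and 9.08, 8.98 and 9.06 on the arrays labelled shHLX, with overlapping groups and a difference of -0.04 (SE 0.051, 95% confidence interval -0.16 to 0.07).

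The cytokine genes were dim in both groups, which overlapped. Il1b, the gene of interleukin-1 beta, gave 6.39, 6.55 and 6.32 with shControl and 6.30, 6.41 and 6.29 on the arrays labelled shHLX, a difference of -0.09 (SE 0.068, 95% confidence interval -0.25 to 0.07). Il18, the gene of interleukin-18, gave 5.15, 4.97 and 5.06 and then 4.98, 5.08 and 5.06, a difference of -0.02 (SE 0.057, 95% confidence interval -0.15 to 0.11). Both cytokine genes and Nlrc4 had a mean under the olfactory receptor level, and for these 3 a difference in RNA may not be detectable at that signal.

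Gsdmd, the gene of gasdermin D, was measured well above that level. It gave 8.54, 8.48 and 8.51 with shControl and 8.43, 8.499 and 8.41 on the arrays labelled shHLX. The groups overlapped, and the difference was -0.06 (SE 0.045, 95% confidence interval -0.17 to 0.04, or 0.957-fold). The intervals of Pycard, Casp4, Il1b, Il18 and Gsdmd reached no further than 0.21 upwards and -0.25 downwards, so a difference in signal as large as that of Nlrp3 lay outside each of them.

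**Figure D2:**
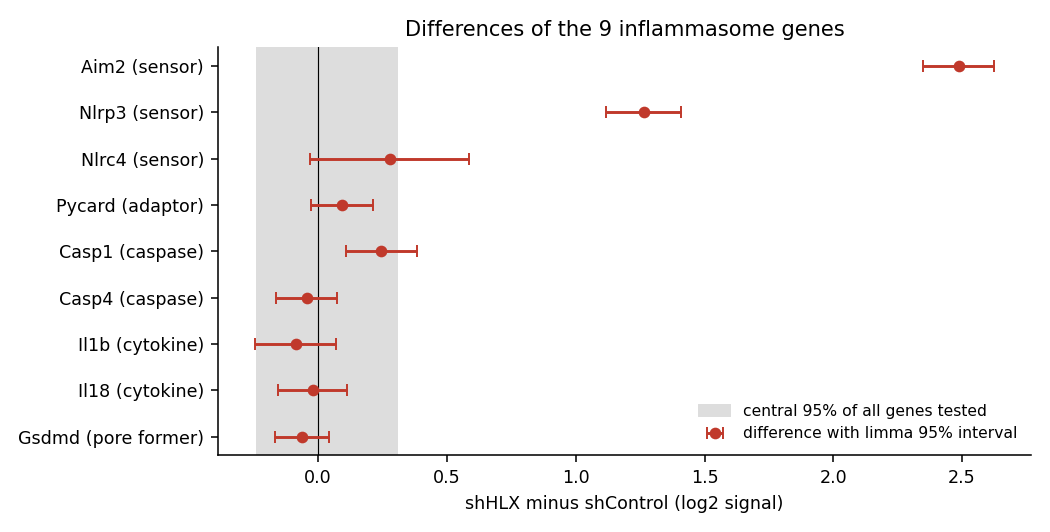
Difference of the mean log2 signal, shHLX minus shControl, of each of the 9 genes (points), with limma's 95% confidence interval (bars, 3 arrays against 3). The grey band spans the central 95% of the differences of all 19938 genes, from -0.24 to 0.31, and Aim2 (2.49) and Nlrp3 (1.26) stand outside it while the other 7 points stand inside.

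Across the 9 genes the median difference was 0.09, against -0.01 over all 19938 genes, and 5 of the 9 lay within 0.1 of no difference (55.6%, against 66.2% of all genes). A difference of at least 1 in size was found for 2 of the 9 and for 0.391% of all genes. Limma called 2 of the 9 at an adjusted p under 0.05, both higher (Aim2 and Nlrp3), where it called 6.18% of all genes, 3.75% as higher and 2.43% as lower. With an intensity trend, an alternative named below, it called 3 of the 9, all higher, and 1437 of all 19938 genes as higher. The groups were apart for 3 of the 9, where they were apart for 26.2% of all genes. As the genes were chosen with these differences known, nothing is read from these counts. Of the 9 genes, 6 passed a filter at the olfactory receptor level, 7 a filter at the 25th percentile of signal and 4 a filter at the median. Aim2 passed the first 2 of these only through its shHLX arrays, and Nlrp3 the first, so no count of calls is given after a filter. Neither passed the filter at the median.

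Over the 6 arrays, the genes whose signal ran most like that of Aim2 were Maob (Pearson r = 0.9997), Fat3 (0.9994), Hgf (0.9991), Igll1 (0.9990) and Zcwpw1 (0.9989), out of 76 named genes that differed by at least 1 on the log2 scale. Maob encodes a monoamine oxidase, Hgf the hepatocyte growth factor and Igll1 part of the surrogate light chain of B cell precursors. Such values mostly restate that the groups differ, since the points are 3 arrays against 3. For the other members r with Aim2 was 0.991 for Nlrp3, 0.893 for Casp1, 0.684 for Pycard and 0.62 for Nlrc4, and -0.206 to -0.729 for Casp4, Il1b, Il18 and Gsdmd.

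Aim2 heads a run of related genes, the PYHIN or Ifi200 cluster, several of whose products bind nucleic acids. Of 13 protein-coding genes from Aim2 to Ifi205 in RefSeq order, 10 had a probe set of their own, and 2 of the other 9 passed limma, both higher (22.2%, against 3.75% of all genes). Without limma's moderation of the variance 0 of the 9 passed, with 3 at an unadjusted p under 0.05 in limma. Nothing is read from the 3, as the share of all genes at that threshold was not taken. Ifi203 rose from 8.52, 8.24 and 8.29 with shControl to 9.06, 8.94 and 9.17 on the arrays labelled shHLX, a 1.63-fold rise (interval 1.41 to 1.88, limma adjusted p = 0.00301, or 0.0623 without moderation). It is the 1 gene of these 9 with a mean above the olfactory receptor level. Ifi207 rose 1.21-fold (limma adjusted p = 0.0357), at 5.09 to 5.30 against 5.46 to 5.49, and was no longer passed without any 1 array other than shControl 3 (adjusted p up to 0.105) or without moderation (0.126).

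The gene next to Aim2 in the cluster, Ifi206, differed by 0.02 (SE 0.059), and Cadm3 on its other side by -0.11 (SE 0.074). The remaining PYHIN genes differed by -0.17 (Ifi205) to 0.23 (Ifi214) and did not pass. The PYHIN genes resemble each other in sequence, so probes may pick up more than 1 of them, and the share of signal that each gives was not tested.

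**Figure D3:**
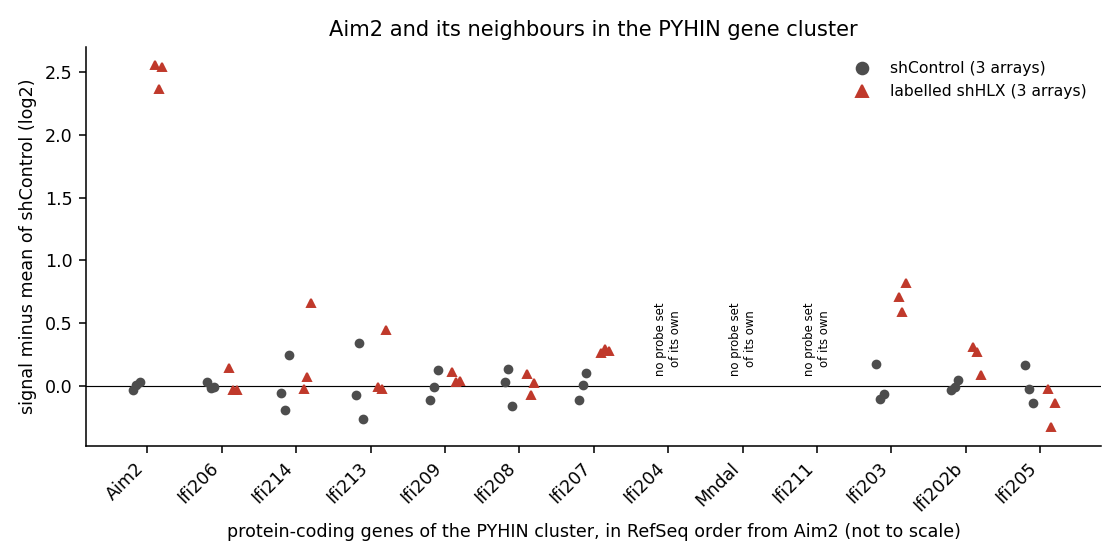
Signal on each array minus the mean of the 3 shControl arrays (log2), for the 13 protein-coding genes of the PYHIN cluster in RefSeq order, with shControl arrays as grey circles and arrays labelled shHLX as red triangles. Aim2 lies 2.49 above control on average and Ifi203 lies 0.70 above it, while Ifi206, the gene between Aim2 and the rest, differs by 0.02. The 3 genes without a probe set of their own are marked.

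Neighbours of the other members were read in the same way, with 2 measured genes on each side. Of 28 such genes that are not members themselves, Itgam rose and 4933439C10Rik fell (7.14%, against 6.18% of all genes). Itgam, which encodes the integrin chain CD11b and lies 2 genes from Pycard, went from 7.99 ± 0.091 to 8.74 ± 0.10 (SD, n = 3 each, limma adjusted p = 0.000615), or 1.68-fold. The gene 4933439C10Rik beside Nlrp3 differed by -0.27 (SE 0.054) and passed limma as lower (adjusted p = 0.0266). Casp12, which follows Casp4 in the caspase cluster, differed by -0.01 (SE 0.063).

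The other genes of the pathway were read from 8 lists, which were fixed by function but with a report on these arrays already known. Of 130 entries, 111 could be measured with a probe set annotated to that gene alone, and limma called 15 higher (13.5%, against 3.75% of all genes) and 0 lower (against 2.43%). Without variance moderation the counts were 12 and 0, against 532 and 306 of all 19938 genes. At an unadjusted p under 0.05 in limma they were 29 and 6. The share of all genes at that unadjusted threshold was not taken. Nothing is therefore read from 29 and 6, or from such counts given for single lists, marker lists included. The median difference was 0.05, against -0.01 over all genes. Of the 111 genes, 40 had a mean under the olfactory receptor level.

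Of 15 other sensors measured, Naip6 and Naip5 rose and 13 did not pass (median difference 0.11). Both encode proteins that bind flagellin and hand the signal to NLRC4. Naip6 gave 7.05, 7.08 and 7.16 with shControl and 7.52, 7.52 and 7.59 on the arrays labelled shHLX, a 1.37-fold rise (interval 1.26 to 1.48, limma adjusted p = 0.00133). Naip5 gave 7.47, 7.16 and 7.19 and then 7.67, 7.70 and 8.03, a 1.44-fold rise (interval 1.19 to 1.74, limma adjusted p = 0.0405), but did not pass without any 1 array other than shControl 1 (adjusted p up to 0.15) or without moderation (0.196). The Naip genes are near-identical copies, so their signals may be shared. Naip2, which recognises secretion system parts, differed by 0.16 (SE 0.056), the pyrin gene Mefv by 0.19 (SE 0.057) and Nlrp1a by 0.24 (SE 0.079), none past the threshold. Nlrc5 differed by -0.14 (SE 0.056).

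Of 20 cofactors and restraints measured, Card6 and Txnip rose and 18 did not pass (median difference 0.05). Card6, whose product carries a caspase recruitment domain, gave 5.99, 5.89 and 6.06 with shControl and 6.75, 6.77 and 6.98 on the arrays labelled shHLX, a 1.81-fold rise (interval 1.60 to 2.04, limma adjusted p = 0.00044). The control arrays of Card6 lay under the olfactory receptor level and the shHLX arrays above it. Txnip, whose product can bind NLRP3, rose 1.15-fold (limma adjusted p = 0.0319) and failed to pass whichever single array was removed (adjusted p 0.0604 to 0.144). Nek7, the kinase that NLRP3 needs for assembly, differed by 0.09 (SE 0.052), and P2rx7, the ATP-gated channel that lets potassium out, by -0.02 (SE 0.066). Ninj1, whose product ruptures the membrane after gasdermin pores form, differed by 0.15 (SE 0.040, limma adjusted p = 0.0743).

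None of 6 other caspases passed limma, at an unadjusted p under 0.05 either, or without variance moderation. Their differences spanned -0.04 (Casp2) to 0.04 (Casp9), and the apoptotic initiator gene Casp8 differed by 0.01 (SE 0.044). Of 8 other gasdermin genes 0 passed limma or the test without moderation. At an unadjusted p under 0.05 there were 2, from which nothing is read without the share of all genes. Gsdme, which caspase-3 cleaves, differed by -0.21 (SE 0.064, limma adjusted p = 0.113) and Pjvk by 0.12 (SE 0.049, limma adjusted p = 0.235).

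Of 15 other genes of the interleukin-1 family measured, 3 rose and 12 did not pass (20%, against 3.75% of all genes, with median difference 0.04). Without variance moderation Il1rn alone of these 3 passed. All 3 encode proteins that block the cytokines: Il1rn the receptor antagonist of interleukin-1, Il1r2 its decoy receptor, and Il18bp the protein that neutralises interleukin-18. Il1r2 gave 5.89, 6.003 and 5.69 with shControl and 6.78, 6.78 and 6.44 on the arrays labelled shHLX, a 1.75-fold rise (interval 1.46 to 2.09, limma adjusted p = 0.00499, or 0.0829 without moderation). Its control signal lay under the olfactory receptor level.

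Il1rn gave 6.73, 6.82 and 6.81 and then 7.19, 7.14 and 7.16, a 1.30-fold rise (interval 1.20 to 1.395, limma adjusted p = 0.00253). Il18bp gave 7.97, 8.00 and 7.94 and then 8.24, 8.30 and 8.44, a 1.28-fold rise (interval 1.16 to 1.41, limma adjusted p = 0.0116), and did not pass without shControl 3 (adjusted p = 0.0629) or without moderation (0.0785). Other members that restrain cytokines of this family did not pass: Sigirr differed by -0.20 (SE 0.055) and Il36rn (Il1f5 on the array) by 0.00 (SE 0.10). Il1a differed by -0.14 (SE 0.092), and the accessory receptor chain gene Il1rap by 0.04 (SE 0.041).

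Of 17 genes of Toll-like and interleukin-1 receptor signalling measured, 3 rose and 14 did not pass (17.6% higher; median difference 0.04). Tlr7, an endosomal receptor for RNA, gave 7.99, 7.92 and 7.92 with shControl and 8.47, 8.51 and 8.49 on the arrays labelled shHLX, a 1.46-fold rise (interval 1.37 to 1.57, limma adjusted p = 0.000244). Tlr4, the receptor for lipopolysaccharide, gave 9.57, 9.46 and 9.53 and then 9.93, 9.93 and 10.09, a 1.38-fold rise (interval 1.25 to 1.52, limma adjusted p = 0.00322). Nfkbia, the gene of the inhibitor that NF-kB itself induces, rose 1.23-fold (limma adjusted p = 0.00692). Tnf, another gene that priming induces in macrophages, differed by 0.02 (SE 0.098), and Myd88, the adaptor of most of these receptors, by -0.09 (SE 0.049).

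Of 21 genes of cytosolic DNA sensing and the interferon response measured, 3 rose and 18 did not pass (14.3% higher; median difference 0.06). Sting1, which passes on the signal of the DNA sensor cGAS, gave 8.08, 8.27 and 8.14 with shControl and 8.88, 9.06 and 8.93 on the arrays labelled shHLX, a 1.73-fold rise (interval 1.55 to 1.93, limma adjusted p = 0.000375). Stat2 rose 1.14-fold (limma adjusted p = 0.0392) and the receptor gene Ifnar1 1.14-fold (0.0429). Neither Stat2 nor Ifnar1 passed whichever single array was removed (adjusted p up to 0.164 and 0.181).

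Ifit2, Ifit1, Mx1, Oasl2 and Rsad2, genes of this list that interferon induces strongly, did not pass. Ifi203 and Ifi207 of the Ifi200 cluster, given above, did pass. Ifit2 differed by 0.32 (SE 0.087, limma adjusted p = 0.0820), Ifit1 by 0.22 (SE 0.11), Mx1 by 0.06 (SE 0.045), Oasl2 by 0.02 (SE 0.063) and Rsad2 by -0.002 (SE 0.063). Ifit1, Mx1 and Rsad2 had means of 6.05, 5.08 and 6.34, under the olfactory receptor level. For these genes a difference in RNA may not be detectable at that signal. The gene of the sensor cGAS differed by 0.12 (SE 0.049), and Irf2, a factor known to drive Gsdmd, by 0.03 (SE 0.046).

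**Figure D4:**
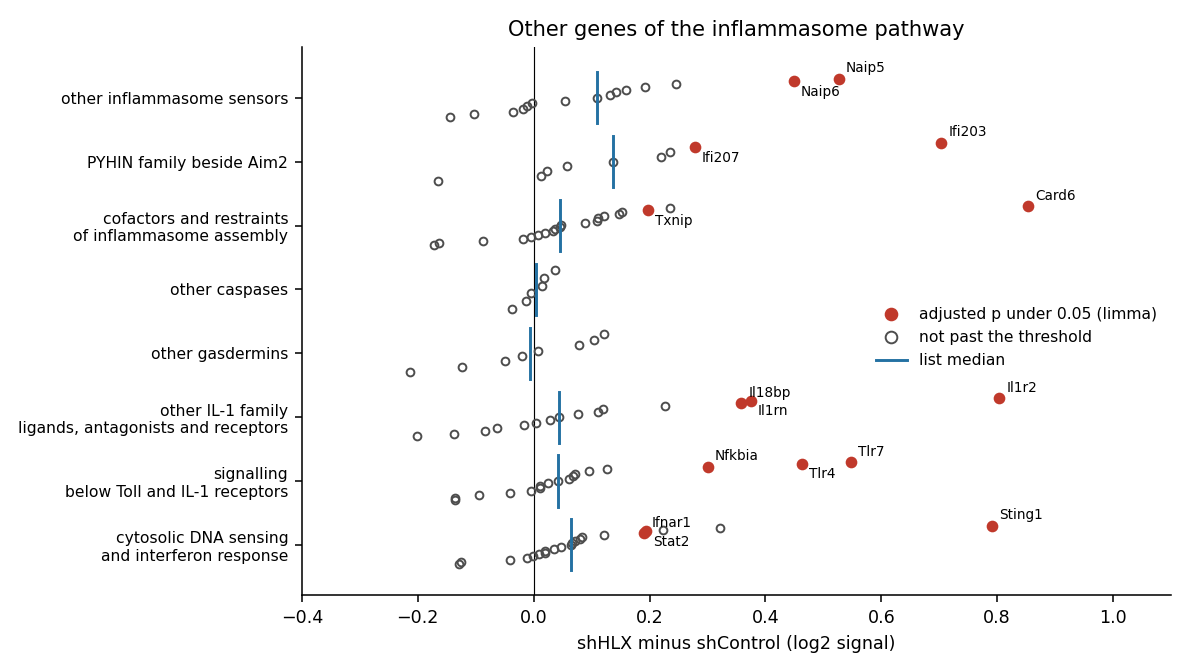
Difference of the mean log2 signal, shHLX minus shControl, of each measured gene in the 8 lists of other pathway genes. Filled red points passed limma at an adjusted p under 0.05, open points did not, and blue lines mark list medians. The 15 filled points lie between 0.19 (Ifnar1) and 0.85 (Card6), and none lies below 0.

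Markers of other cells that carry inflammasomes are given beside these results. Of 15 macrophage and dendritic cell markers Vsig4 rose and 14 did not pass (6.67% higher, against 3.75% of all genes, with median difference -0.005). Vsig4 gave 4.93 to 5.03 with shControl and 5.18 to 5.34 on the arrays labelled shHLX, all under the olfactory receptor level. Without variance moderation 0 of this list passed. The summed log2 signal of the list was 94.8 to 96.5 on shControl arrays and 95.2 to 96.3 on the arrays labelled shHLX. The macrophage receptor gene Csf1r differed by -0.12 (SE 0.062) and Cd68 by -0.005 (SE 0.047). Myeloid markers moved in both directions. Of 14 measured, Itgam and the lysozyme gene Lyz2 rose, and Ms4a3, Mpo, Kit and Cebpe fell, where limma called 6.18% of all genes. The summed log2 signals were 145.7 to 146.1 with shControl and 140.4 to 141.3 on the arrays labelled shHLX. Ms4a3 (-3.45) and Mpo (-1.46) differed most, and the list median was -0.03. Of 11 lymphoid markers Igll1 alone passed (71.4 to 72.5 against 70.1 to 71.5 summed), and of 10 stromal and epithelial markers 0 passed limma or the test without moderation, with 2 at an unadjusted p under 0.05 (64.2 to 66.0 against 65.7 to 66.7). In bulk arrays fewer cells of a type and less RNA per cell cannot be told apart, and the part of these markers in the differences of Aim2 and Nlrp3 was not tested.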

How the data were processed

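The deposited values are log2 signals, 1 per probe set and array. The submitters' processing notes name RMA, a method of background correction, quantile normalization and probe summary, and Affymetrix Power Tools 1.178, with the build not given in the sources used here. Of 35556 probe sets, 21789 had exactly 1 symbol in the platform annotation, and a gene with several took the one with the highest mean. Groups come from the sample titles.

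Limma 3.58.1 under R 4.3.3 (lmFit and eBayes, two-sided, no covariates) was fitted to all 19938 genes, with Benjamini-Hochberg adjustment and a threshold of 0.05. Intervals are limma's 95% intervals. The code was tested on simulated data. No label says that replicates were separate transductions, so a p-value reflects the spread among these arrays alone, which may be technical, and 3 arrays a group limit the precision.

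The members, lists and motifs were chosen with earlier results of these data known, the motifs also after part of the sequences had been seen. Named genes were the 9 members, Hlx, up to 6 called genes in each list (or the 2 with the smallest p), PYHIN neighbours and the 5 genes most like Aim2. Further genes were picked with values in view. The 3 entries of the PYHIN list (Pydc3, Pydc4, Mnda) are in RefSeq other names of Ifi208, Ifi213 and Ifi211. Neighbours were taken from RefSeq by Entrez identifier, which matched 19842 of the genes. Promoter windows were found for 8 of the 9 members.

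Alternatives were a second quantile normalization, median centring, 3 filters on dim genes, the mean of probe sets or every probe set, an intensity trend, no variance moderation, a replicate block and leaving out each array.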

Additional observations from a re-analysis of the deposited data

Results flagged for a closer look

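A probe set annotated to several genes of the PYHIN cluster, which entered no comparison because it names no single gene, was also higher on the arrays labelled shHLX. It gave 5.38, 5.57 and 5.54 with shControl and 5.89, 5.80 and 5.97 with shHLX, a difference of 0.39 (SE 0.068, limma adjusted p = 0.0156 over 23410 annotated probe sets). All 3 shHLX values lay above the control values, and all 6 lay under the olfactory receptor level of 6.66.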

How the results depend on the processing

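The differences of Aim2 and Nlrp3 kept their size under each alternative that refitted them: 2.45 to 2.55 and 1.22 to 1.31 when 1 array was left out, and 2.48 to 2.504 and 1.26 to 1.28 otherwise. That of Il18 changed sign when 1 array was left out (-0.07 to 0.02). No other member changed sign, and no member moved by more than the SD between its replicates. Limma called 2 members in each alternative without a filter except the intensity trend, where it called 3, all higher.

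The count of all genes called, 1233, was 2064 among genes at or above the median of signal and 2261 with an intensity trend, and 698 to 901 when 1 array was left out (806 without shControl 2, 698 without shControl 3 and 766 without shHLX 1). Of pathway list genes 10 to 22 were called higher, the 22 with the trend, where 1437 of all 19938 genes were higher. The 10 came without shControl 3 and without shHLX 2, where 441 and 532 of all genes were higher. The count called lower, 0, was 1 after a second quantile normalization and 2 with the trend. It was 0 to 1 when 1 array was left out, and 2 with each of the 3 filters. Card6 and Il1r2 passed the filter at the 25th percentile only through their shHLX arrays. Nothing is therefore read from list counts after a filter. With the replicate number as a block the count of all genes was 800, with 497 of all 19938 genes and 11 list genes higher. Naip5, Ifi207, Txnip, Stat2 and Ifnar1 then did not pass. The block gave Nlrc4 an SE of 0.056, against 0.13 without it, and Pycard 0.058, against 0.052. Deviations of same-numbered arrays correlated with r of -0.17, 0.13 and -0.15, and those of differently numbered arrays with r of -0.25 to 0.34. Whether the numbers pair the arrays cannot be told from these values, and no label says so. Stat2 and Ifnar1 were also lost after a second quantile normalization, and Naip5, Ifi207, Ifi203, Il1r2 and Il18bp without variance moderation. The cause of these shifts was not tested. Dim signal limits what can be said of Nlrc4, Il1b and Il18, and of dim list genes such as Ifit1, Mx1 and Rsad2.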
